A study of Homo sapiens with 3 samples.

Results

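The genes described here are the enzymes of glycolysis, the carriers that bring glucose into the cell and genes known to be induced when oxygen is short. Of 41 genes listed by symbol, 37 were measured by a probe set that names 1 gene, out of 18417 genes measured in this way. These were 25 of 28 genes of glycolysis and 12 of 13 genes of the hypoxia response. PGAM1, a phosphoglycerate mutase, was covered only by probe sets that name several genes and is given no value. The monocarboxylate transporters SLC16A1 and SLC16A3 and the carbonic anhydrase CA9 were not analysed here. LoVo is a widely used line of human colorectal cancer cells. LoVo-R8 was selected from it by stepwise exposure to irinotecan, a prodrug whose active form traps topoisomerase I on DNA, with a starting dose of 0.1 μM and a final dose of 8 μM. LoVo-R8 cells were profiled after culture with 8 μM irinotecan (LoVo 8R+) and after irinotecan-free culture (LoVo 8R-), beside the parental LoVo cells. All cultures were kept in RPMI medium with fetal bovine serum, and the protocol text shared by the labels of all samples mentions irinotecan 24 hours before RNA was purified. The sources used here do not say whether parental LoVo received it, nor whether LoVo-R8 was recloned from a single cell.

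Each condition was measured on 1 array, so the values have no error and no p-value, and precision is limited by how few arrays there are. Levels are log2 values, a difference is 1 log2 level minus another, and a gene was counted as higher or lower when it differed by at least 2-fold. The differences of LoVo 8R+ and of LoVo 8R- from parental LoVo share the same parental array. In RNA from whole cultures, fewer cells of a kind and less RNA per cell cannot be told apart. The median level over all probe sets was 6.94 in LoVo 8R+, 6.95 in LoVo 8R- and 6.94 in parental LoVo. Over all genes, LoVo 8R+ and LoVo 8R- differed by less than 0.53 for 95% of genes. Of 12 markers of colon epithelium, 11 in LoVo 8R+, 10 in LoVo 8R- and 11 in parental LoVo were at or above the array median. On each LoVo-R8 array 3 of these markers lay 2-fold or more below parental LoVo and 1 lay above it by as much. CDH1 differed by -2.26 in LoVo 8R+ and by -3.06 in LoVo 8R-, LGALS4 by -2.01 and -2.27, and CEACAM5 by -2.11 and -2.37, while CDH17 differed by 1.13 and 1.07. PTPRC, a defining leukocyte gene, was at 4.12 on every array, while 2 of 5 leukocyte markers, CD68 and LYZ, reached the array median on every array. CD68, a lysosomal protein gene, differed from parental LoVo by 1.86 in LoVo 8R+ and by 1.47 in LoVo 8R-, and LYZ by 0.40 and -0.04. The part of these marker differences in the results was not tested. The 5 measured endothelial markers were below the array median on every array. Of 6 fibroblast markers, 1 in LoVo 8R+, 2 in LoVo 8R- and 1 in parental LoVo reached the array median, and none reached the third quartile.

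Glycolysis splits glucose into pyruvate in a chain of cytosolic reactions that yields a little ATP without oxygen. Most of its steps can be carried out by several isoenzymes encoded by different genes, which differ in tissue distribution and control. Pyruvate is then reduced to lactate or enters the mitochondria, a choice that pyruvate dehydrogenase kinases influence. When oxygen is short, prolyl hydroxylases of the EGLN family no longer mark the alpha subunits of the hypoxia-inducible factors (HIF) for destruction, and HIF raises transcription of many glycolytic genes. Colorectal cancer cells commonly use glycolysis even in the presence of oxygen.

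Most glycolysis and hypoxia-induced genes were within 2-fold of parental LoVo on both LoVo-R8 arrays. In LoVo 8R+, 2 of the 37 genes were at least 2-fold higher, where 2.25% of all genes were, and 1 was at least 2-fold lower, where 2.3% of all genes were. The higher genes were the phosphofructokinase gene PFKM (2.49-fold) and the enolase gene ENO2 (2.45-fold), and the lower one was the aldolase gene ALDOC (2.88-fold lower). In LoVo 8R-, PFKM (2.17-fold) was the 1 gene at least 2-fold higher, against 1.64% of all genes, and ALDOC (3.25-fold lower) was the 1 gene at least 2-fold lower, against 2.78% of all genes. Between the LoVo-R8 arrays, the hexokinase-like gene HKDC1 was the 1 gene at least 2-fold lower in LoVo 8R+ (2.37-fold), against 0.114% of all genes, and 0 were at least 2-fold higher, against 0.527%. With so few genes past 2-fold, these shares describe single genes and not the group. The median difference of the 37 genes was 0.00 in LoVo 8R+, whereas in LoVo 8R- it was -0.31, and the median over all genes was 0 for both.

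At the lower threshold of 1.5-fold, LoVo 8R+ had 5 genes higher (PFKM, ENO2, ENO3, BNIP3L and P4HA1; 5.79% of all genes) and 4 lower (SLC2A1, HK2, PFKFB2 and ALDOC; 7.19%). LoVo 8R- had 2 higher, PFKM and HKDC1, where 4.37% of all genes were. It had 8 lower (SLC2A1, HK2, ALDOC, ENO1, PKM, PDK3, EGLN3 and ANKRD37), where 8.84% of all genes were. Between the LoVo-R8 arrays, ENO2, PDK3, EGLN3 and P4HA2 were the 4 genes higher in LoVo 8R+, against 2.87% of all genes, and HKDC1 was the 1 lower, against 1.08%. At 3-fold, LoVo 8R+ had 0 higher and 0 lower than parental LoVo, where 0.733% and 0.831% of all genes were. LoVo 8R- had 0 higher and 1 lower, ALDOC, against 0.483% and 0.977%. Between the LoVo-R8 arrays 0 genes were 3-fold higher and 0 lower, against 0.0706% and 0.00543%.

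**Figure D1:**
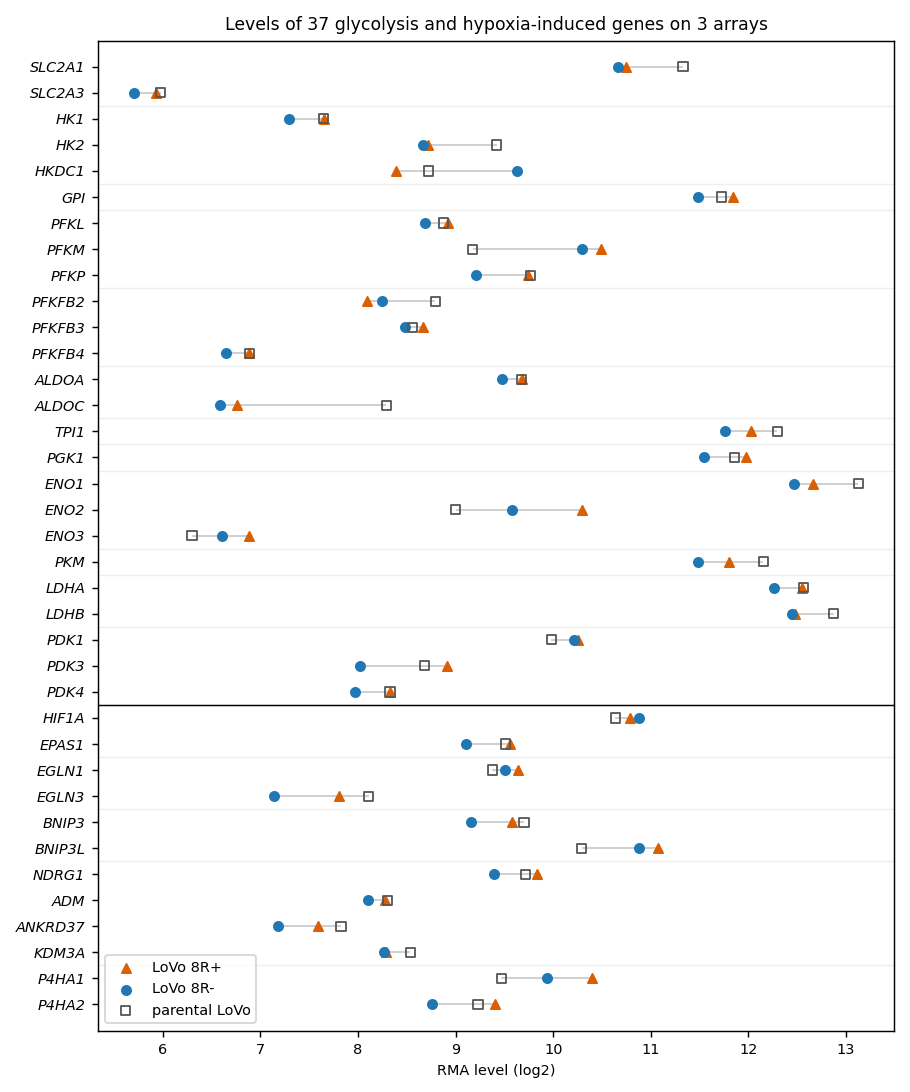
RMA log2 levels (horizontal axis) of the 37 measured genes in LoVo 8R+ (triangles), LoVo 8R- (circles) and parental LoVo (open squares), 1 array each, with glycolytic genes above the black line and hypoxia genes below it. PFKM lies at 10.49, 10.29 and 9.18 on these arrays and ALDOC at 6.76, 6.59 and 8.29, and most other genes have their 3 symbols close together.

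The sequences before the starts of the genes that passed 2-fold are shown because HIF binds short DNA motifs, ACGTG and GCGTG, that lie in many promoters of this pathway. Both motifs were searched on both strands (CACGT and CACGC on the printed strand), and capitals mark the matches. A CACGTG counts as a match on each strand. The 250 bases before the start are given for ALDOC (chr17:28576896-28577145, minus strand), ENO2 (chr12:6914330-6914579, plus strand) and HKDC1 (chr10:69220082-69220331, plus strand), each of which has 1 start in the RefSeq table of build GRCh38.p14. PFKM has 7 starts there and is not printed. The 250 bases before 1 of these starts held 1 match, and those before each of the others held 0. BNIP3 (chr10:131981924-131982173, minus strand) is added because, with 6, it had the most matches among the genes with 1 start that could be shown.
ALDOC: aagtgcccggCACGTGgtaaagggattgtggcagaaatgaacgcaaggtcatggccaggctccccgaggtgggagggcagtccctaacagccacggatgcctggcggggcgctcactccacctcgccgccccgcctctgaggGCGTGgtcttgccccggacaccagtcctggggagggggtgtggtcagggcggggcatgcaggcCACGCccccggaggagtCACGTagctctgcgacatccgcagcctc
BNIP3: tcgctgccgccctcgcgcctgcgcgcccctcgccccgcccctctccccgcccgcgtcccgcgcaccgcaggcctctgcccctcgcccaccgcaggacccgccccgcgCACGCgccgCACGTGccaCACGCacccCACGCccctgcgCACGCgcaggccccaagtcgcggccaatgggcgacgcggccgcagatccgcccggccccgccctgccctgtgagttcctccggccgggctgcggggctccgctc
ENO2: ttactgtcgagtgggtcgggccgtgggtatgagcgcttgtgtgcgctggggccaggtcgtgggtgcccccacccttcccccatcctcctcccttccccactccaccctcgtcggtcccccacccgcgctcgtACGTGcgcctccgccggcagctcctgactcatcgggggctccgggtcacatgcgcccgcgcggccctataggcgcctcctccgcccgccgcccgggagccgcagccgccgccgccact
HKDC1: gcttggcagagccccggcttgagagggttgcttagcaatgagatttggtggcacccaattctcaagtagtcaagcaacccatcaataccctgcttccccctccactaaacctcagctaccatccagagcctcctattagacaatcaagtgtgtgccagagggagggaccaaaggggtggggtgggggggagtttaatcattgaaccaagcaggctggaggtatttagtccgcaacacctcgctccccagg
ALDOC held 5 matches, the nearest beginning 28 bases before the start, ENO2 held 1 match beginning 118 bases before it, and HKDC1 held 0. Of 58 such windows belonging to 33 of the 37 genes, 33 (56.9%) held at least 1 match, and so did 43.2% of 35116 windows over all genes. A match is a stretch of letters and not a site shown to be bound.

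At glucose uptake, the broadly expressed transporter gene SLC2A1 was lower on both LoVo-R8 arrays, by less than 2-fold. Its level was 10.74 in LoVo 8R+, 10.66 in LoVo 8R- and 11.33 in parental LoVo, which is 1.5-fold and 1.59-fold lower in the resistant cultures. SLC2A3, a transporter with high affinity for glucose, had 5.93 in LoVo 8R+, 5.71 in LoVo 8R- and 5.98 in parental LoVo. It lay below the median of every array, and its close paralog SLC2A14 may share probe sequence with it.

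The hexokinase step, which traps glucose as its phosphate, differed from gene to gene. HK2, the isoenzyme commonly raised in tumours, had 8.72 in LoVo 8R+, 8.66 in LoVo 8R- and 9.42 in parental LoVo, so both LoVo-R8 arrays were lower, by 1.63-fold and 1.69-fold. HK1, the housekeeping isoenzyme, had 7.65 in LoVo 8R+, 7.29 in LoVo 8R- and 7.65 in parental LoVo. HKDC1, a further member of the family, had 8.39 in LoVo 8R+, 9.63 in LoVo 8R- and 8.72 in parental LoVo. LoVo 8R- was thus the high array for HKDC1, above parental LoVo by 0.91, while LoVo 8R+ was below parental LoVo by a difference of -0.34. Counted from the lowest difference up, HKDC1 ranked 9 of 18417 genes between LoVo 8R+ and LoVo 8R-. Relative to HK2, HKDC1 was shifted by 0.37 in LoVo 8R+ and by 1.67 in LoVo 8R-. GPI, the isomerase of the next step, had 11.85 in LoVo 8R+, 11.49 in LoVo 8R- and 11.73 in parental LoVo.

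Of the phosphofructokinases, which catalyse the committed step, PFKM alone passed 2-fold. PFKM encodes the muscle-type subunit, and its level was 10.49 in LoVo 8R+, 10.29 in LoVo 8R- and 9.18 in parental LoVo. The liver-type gene PFKL had 8.92 in LoVo 8R+, 8.69 in LoVo 8R- and 8.88 in parental LoVo. The platelet-type gene PFKP had 9.75 in LoVo 8R+, 9.21 in LoVo 8R- and 9.77 in parental LoVo. LoVo 8R- was the lowest array for both PFKL and PFKP, while parental LoVo was the lowest for PFKM. Relative to PFKL, PFKM was shifted upward by 1.27 in LoVo 8R+ and by 1.31 in LoVo 8R-, and relative to PFKP by 1.34 and 1.68. Counted from the highest difference, PFKM ranked 223 in LoVo 8R+, and its rank was 226 in LoVo 8R-.

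The PFKFB enzymes make and remove the sugar bisphosphate that activates phosphofructokinase. PFKFB2 was lower on both LoVo-R8 arrays, with a level of 8.09 in LoVo 8R+ and of 8.25 in LoVo 8R-, against 8.79 in parental LoVo, or by 1.63-fold and 1.46-fold. PFKFB3, which favours synthesis of the activator, had 8.66 in LoVo 8R+, 8.48 in LoVo 8R- and 8.56 in parental LoVo. PFKFB4 had 6.89 in LoVo 8R+, 6.65 in LoVo 8R- and 6.89 in parental LoVo, below the array median throughout. PFKFB3 differed from parental LoVo by 0.10 in LoVo 8R+ and by -0.08 in LoVo 8R-, and PFKFB4 by 0 and -0.24.

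The aldolases split the sugar bisphosphate into trioses, and the genes of this step did not differ alike between the cultures. ALDOC, the brain-type aldolase, had 6.76 in LoVo 8R+, 6.59 in LoVo 8R- and 8.29 in parental LoVo. The LoVo-R8 arrays lay close together and parental LoVo stood apart. Both LoVo-R8 levels of ALDOC were below the array median and are not shown to be above background, so its fold is uncertain. Counted from the lowest difference, ALDOC ranked 168 in LoVo 8R+, and its rank was 145 in LoVo 8R-. ALDOA, the main aldolase of most cells, had 9.68 in LoVo 8R+, 9.47 in LoVo 8R- and 9.68 in parental LoVo. Its deposited values in LoVo 8R+ and parental LoVo were an exact tie. Relative to ALDOA, ALDOC was shifted by -1.52 in LoVo 8R+ and by -1.5 in LoVo 8R-.

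The later enzymes of the pathway with 1 measured gene were all within 2-fold. TPI1, which interconverts the trioses, had 12.03 in LoVo 8R+, 11.76 in LoVo 8R- and 12.29 in parental LoVo. A dimmer probe set of TPI1 differed by -0.36 in LoVo 8R+ and by -0.71 in LoVo 8R-, in the same direction as those of the brighter one (-0.26 and -0.53). PGK1, the first ATP-forming enzyme, had 11.98 in LoVo 8R+, 11.55 in LoVo 8R- and 11.86 in parental LoVo. PKM, the pyruvate kinase gene, had 11.80 in LoVo 8R+, 11.48 in LoVo 8R- and 12.15 in parental LoVo, so both LoVo-R8 arrays were lower, by 1.28-fold and 1.59-fold. A probe set per gene does not separate the splice forms of PKM.

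The enolase genes had differences of both signs. ENO2, the neuron-type enolase, had 10.29 in LoVo 8R+, 9.58 in LoVo 8R- and 9.00 in parental LoVo. It was highest in LoVo 8R+ and passed 2-fold there, and in LoVo 8R- it was 1.49-fold higher than in parental LoVo. ENO3, the muscle-type enolase, had 6.89 in LoVo 8R+, 6.60 in LoVo 8R- and 6.30 in parental LoVo, the same order of arrays at levels below the array median. ENO1, the ubiquitous enolase, had 12.66 in LoVo 8R+, 12.47 in LoVo 8R- and 13.12 in parental LoVo, so parental LoVo was its highest array. Relative to ENO1, ENO2 was shifted by 1.76 in LoVo 8R+ and by 1.23 in LoVo 8R-.

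Lactate dehydrogenase interconverts pyruvate and lactate, and neither of its genes passed 2-fold. LDHA, whose subunit favours lactate formation, had 12.55 in LoVo 8R+, 12.26 in LoVo 8R- and 12.56 in parental LoVo. LDHB, whose subunit prevails in oxidative tissue, had 12.48 in LoVo 8R+, 12.44 in LoVo 8R- and 12.87 in parental LoVo. ENO1, LDHA, LDHB, PGK1, TPI1 and HK2 have pseudogenes or close copies with similar sequence, and their values are uncertain for that reason.

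Of the pyruvate dehydrogenase kinases, which hold pyruvate back from the mitochondria, PDK3 differed most between the resistant cultures. PDK3 had 8.91 in LoVo 8R+, 8.02 in LoVo 8R- and 8.68 in parental LoVo, a difference of 0.88 between LoVo 8R+ and LoVo 8R-. PDK1, a HIF target, had 10.26 in LoVo 8R+, 10.22 in LoVo 8R- and 9.98 in parental LoVo. PDK4, an isoenzyme raised by fasting, had 8.33 in LoVo 8R+, 7.97 in LoVo 8R- and 8.33 in parental LoVo.

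**Figure D2:**
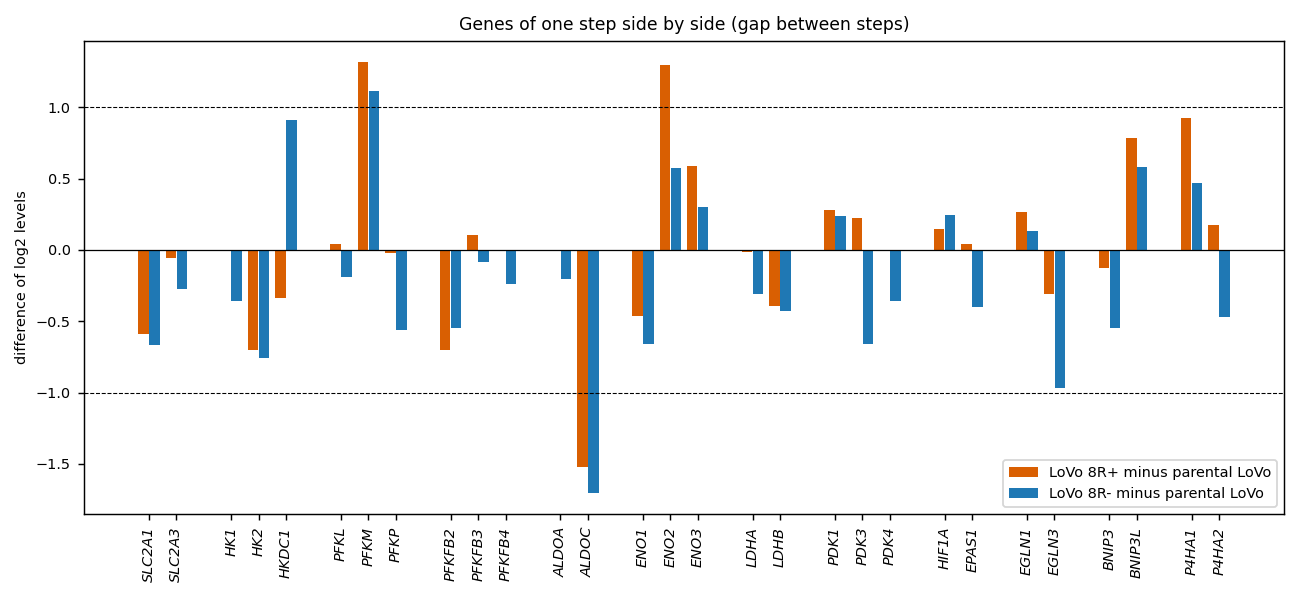
Difference of log2 levels from parental LoVo (vertical axis) in LoVo 8R+ (orange) and LoVo 8R- (blue) for each gene of the steps with more than 1 measured gene, with dashed lines at 2-fold. PFKM stands at 1.32 and 1.12 beside PFKL and PFKP near or below 0, and ALDOC at -1.52 and -1.70 beside ALDOA at 0.00 and -0.20.

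Among the hypoxia genes, 0 of 12 passed 2-fold in any of the comparisons, where 6.16% of all genes did. In a set of 12 genes, a count of 0 is not set apart from that share. In LoVo 8R+ their median difference was 0.08, and in LoVo 8R- it was -0.30. The HIF alpha subunits themselves had small differences. HIF1A had 10.79 in LoVo 8R+, 10.88 in LoVo 8R- and 10.64 in parental LoVo. EPAS1, which encodes the other main alpha subunit, had 9.55 in LoVo 8R+, 9.11 in LoVo 8R- and 9.51 in parental LoVo. HIF alpha protein is controlled mainly by its breakdown, which an RNA level does not measure.

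EGLN1, the main oxygen-sensing prolyl hydroxylase, had 9.64 in LoVo 8R+, 9.50 in LoVo 8R- and 9.37 in parental LoVo. EGLN3, a prolyl hydroxylase that HIF induces, had 7.80 in LoVo 8R+, 7.14 in LoVo 8R- and 8.11 in parental LoVo. LoVo 8R- was the lowest array for EGLN3, 1.95-fold below parental LoVo and just short of 2-fold. Relative to EGLN1, EGLN3 was shifted by -0.58 in LoVo 8R+ and by -1.10 in LoVo 8R-.

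BNIP3 and BNIP3L encode related mitophagy receptors that mark mitochondria for removal. BNIP3L had 11.08 in LoVo 8R+, 10.87 in LoVo 8R- and 10.29 in parental LoVo, higher in the resistant cultures by 1.72-fold and 1.498-fold. BNIP3, whose promoter letters are shown above, had 9.58 in LoVo 8R+, 9.15 in LoVo 8R- and 9.70 in parental LoVo, lower in the resistant cultures by 1.09-fold and 1.46-fold. Both LoVo-R8 arrays thus lay above parental LoVo for BNIP3L and below it for BNIP3.

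The collagen prolyl hydroxylase genes P4HA1 and P4HA2, whose enzymes stabilise collagen, also differed from each other. P4HA1 had 10.39 in LoVo 8R+, 9.94 in LoVo 8R- and 9.47 in parental LoVo, higher in the resistant cultures by 1.90-fold and 1.39-fold. P4HA2 had 9.41 in LoVo 8R+, 8.76 in LoVo 8R- and 9.23 in parental LoVo, with parental LoVo between the resistant cultures.

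The remaining hypoxia-induced genes were within 2-fold of parental LoVo, and the farthest, ANKRD37, was 1.56-fold lower in LoVo 8R-. ANKRD37 had 7.59 in LoVo 8R+, 7.18 in LoVo 8R- and 7.83 in parental LoVo. NDRG1, a stress-responsive gene, had 9.83 in LoVo 8R+, 9.40 in LoVo 8R- and 9.72 in parental LoVo. KDM3A, a histone demethylase gene, had 8.28 in LoVo 8R+, 8.26 in LoVo 8R- and 8.53 in parental LoVo. ADM, which encodes the vasodilator peptide adrenomedullin, had 8.28 in LoVo 8R+, 8.10 in LoVo 8R- and 8.30 in parental LoVo. For each of these genes but KDM3A, the arrays of LoVo 8R+ and parental LoVo were closer to each other than either was to LoVo 8R-.

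LoVo 8R+ was above LoVo 8R- for 34 of the 37 genes, and the exceptions were HKDC1, PFKFB2 and HIF1A. Over all 18417 genes, LoVo 8R+ was above LoVo 8R- for 39.4%, with 2236 exact ties counted as not above. Of the 4605 genes at or above the third quartile of mean level (the bright genes), 57.9% were above. The bright genes hold 23 of the 37, and 21 of those 23 were above. The median difference was 0.24 over the 37 genes, 0.27 over those 23, 0 over all genes and 0.04 over the bright genes. Each of these 37 differences except those of HKDC1, PFKP, ENO2, PDK3, EGLN3 and P4HA2 was smaller than the 0.53 that bounds 95% of all genes. LoVo 8R- was the lowest of the 3 arrays for 27 of the 37 genes and for 15 of the 23 bright ones among them. With ties counted as not lowest, this pattern was seen in 23.4% of all genes and 38.1% of the bright genes. In LoVo 8R+, 5 genes (HK1, PFKFB4, ALDOA, LDHA and PDK4), or 13.5%, lay within 0.02 of parental LoVo, as did 20.5% of all genes. The shares over all genes moved with the scaling, for median centring in part through exact ties. Median centring shifted every difference of LoVo 8R+ minus LoVo 8R- upward by 0.01, so tied genes then counted as above. The 37 genes held 0 such ties. With LoVo 8R+ above LoVo 8R-, median centring gave 34 of the 37 genes, 54.2% of all genes and 63.8% of the bright genes. Loess correction gave 34 genes, 52.2% and 51.4%, and repeated quantile normalization gave 30 genes, 44.3% and 48.5%. With LoVo 8R- lowest, median centring gave 27 genes, 36.9% and 44.3%, loess correction gave 27 genes, 35.4% and 31.5%, and repeated quantile normalization gave 24 genes, 27.8% and 29.3%. Of the 23 bright genes among the 37, these scalings gave, in this order, 21, 21 and 18 with LoVo 8R+ above LoVo 8R-. They gave 15, 15 and 13 with LoVo 8R- lowest. In the further lists described below, LoVo 8R+ was above LoVo 8R- for 14 and below it for 14 of 33 other hypoxia-induced genes. It was above for 8 and below for 9 of 21 other enzymes of sugar breakdown and synthesis, and both medians were 0. For pyruvate entry it was above for 8 and below for 2 of 10 genes, and for the pentose phosphate pathway above for 9 and below for 2 of 11. For the oxygen-sensing machinery it was above for 7 and below for 4 of 12 genes. For the other sugar and monocarboxylate carriers it was above for 6 and below for 8 of 17. The comparison with bright genes was chosen after the values had been seen, and with 1 array per culture the part of array-wide brightness in this pattern was not tested.

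**Figure D3:**
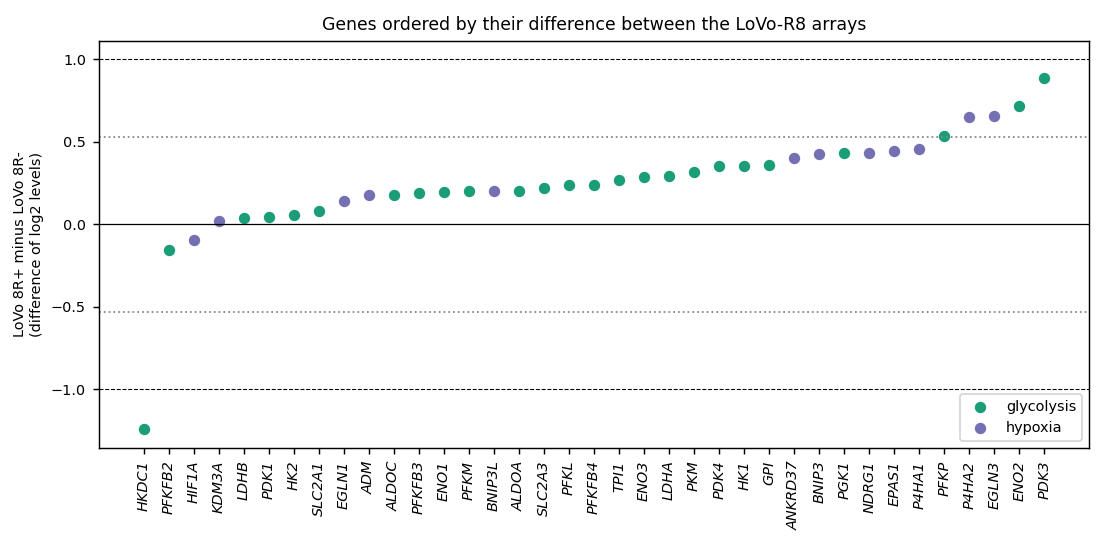
LoVo 8R+ minus LoVo 8R- as a difference of log2 levels (vertical axis) for the 37 genes ordered by it, with glycolytic genes in green, hypoxia genes in purple, dotted lines at 0.53 in either direction and dashed lines at 2-fold. HKDC1 lies at -1.24, PDK3 at 0.88, and 34 genes lie above 0.

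The other genes of these pathways were taken from 6 further lists with 104 measured genes. The lists were chosen with earlier results of these data known, and the part of that choice in the shares below was not tested. Among 21 further enzymes of sugar breakdown and synthesis, 3 (14.3%) were at least 2-fold lower and 0 higher than parental LoVo on each LoVo-R8 array, against 2.3% lower and 2.25% higher among all genes for LoVo 8R+, and 2.78% and 1.64% for LoVo 8R-. PCK1, which catalyses a first step of glucose synthesis, had 6.41 in LoVo 8R+, 6.44 in LoVo 8R- and 8.08 in parental LoVo. FBP1, the fructose bisphosphatase that runs against phosphofructokinase, had 6.69 in LoVo 8R+, 6.90 in LoVo 8R- and 7.99 in parental LoVo. TIGAR, which lowers the activator of phosphofructokinase, had 7.26 in LoVo 8R+, 8.04 in LoVo 8R- and 9.10 in parental LoVo. These genes had their highest level in parental LoVo. GAPDH, the dehydrogenase that follows TPI1, differed from parental LoVo by 0.01 in LoVo 8R+ and by 0.03 in LoVo 8R-. The median over the list was 0 in LoVo 8R+ and it was 0.03 in LoVo 8R-.

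The list of pyruvate entry into mitochondria had the lowest medians of these lists, with -0.33 in LoVo 8R+ and, over the same 10 genes, -0.55 in LoVo 8R-. At 2-fold, 1 gene was higher and 2 were lower in LoVo 8R+, while LoVo 8R- had 0 higher and 2 lower. Over all genes, LoVo 8R+ had 2.25% higher and 2.3% lower, while LoVo 8R- had 1.64% and 2.78%. MPC1, a subunit of the mitochondrial pyruvate carrier, had 7.41 in LoVo 8R+, 7.68 in LoVo 8R- and 8.80 in parental LoVo. DLAT, the acetyl-transferring subunit of pyruvate dehydrogenase, had 8.62 in LoVo 8R+, 8.51 in LoVo 8R- and 9.96 in parental LoVo. PDP1, the phosphatase that reactivates the complex, had 11.29 in LoVo 8R+, 10.81 in LoVo 8R- and 10.03 in parental LoVo. Its fold over parental LoVo was 2.39 in LoVo 8R+ and was 1.71 in LoVo 8R-. The carrier partner MPC2 differed from parental LoVo by 0.02 in LoVo 8R+ and by -0.12 in LoVo 8R-.

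On neither LoVo-R8 array did any of 17 other sugar and monocarboxylate carriers pass 2-fold against parental LoVo. The same held for 11 genes of the pentose phosphate pathway. Few of all genes lay this far from parental LoVo. For LoVo 8R+ 2.25% lay above it and 2.3% below, and for LoVo 8R- 1.64% lay above it and 2.78% below. Sets of 17 and 11 genes are too small to be set apart from such shares. The carriers ranged between -0.42 and 0.59 in LoVo 8R+ and between -0.56 and 0.38 in LoVo 8R-. The pentose phosphate genes ranged between -0.41 and 0.61 in LoVo 8R+ and between -0.55 and 0.31 in LoVo 8R-. For the carriers the median was 0.00 in LoVo 8R+, and it was 0 in LoVo 8R-. For the pentose phosphate genes it was 0.10 in LoVo 8R+, and it was 0.02 in LoVo 8R-.

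Of 12 genes of the oxygen-sensing machinery, LoVo 8R+ had 1 at least 2-fold higher and 1 lower, while LoVo 8R- had 0 higher and 1 lower. Among all genes these shares were 2.25% and 2.3% for LoVo 8R+, and 1.64% and 2.78% for LoVo 8R-. ARNT2, a partner subunit of HIF alpha, had 5.57 in LoVo 8R+, 6.19 in LoVo 8R- and 8.14 in parental LoVo. ARNT, the more widely expressed partner, differed from parental LoVo by 0.31 in LoVo 8R+ and by 0.21 in LoVo 8R-. CITED2, which restrains HIF by competing for its coactivators, had 9.65 in LoVo 8R+, 9.39 in LoVo 8R- and 8.54 in parental LoVo. ARNT2 was high in parental LoVo and CITED2 was low there.

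Of 33 other hypoxia-induced genes, 1 was at least 2-fold higher and 4 were lower than parental LoVo on each LoVo-R8 array, which is 3.03% higher and 12.1% lower. The shares among all genes were 2.25% and 2.3% for LoVo 8R+, and 1.64% and 2.78% for LoVo 8R-. CA12, a carbonic anhydrase of the cell surface, had 11.38 in LoVo 8R+, 10.53 in LoVo 8R- and 9.09 in parental LoVo, 4.89-fold and 2.71-fold higher in the resistant cultures. BHLHE41, a circadian and hypoxia-responsive repressor, had 6.23 in LoVo 8R+, 6.73 in LoVo 8R- and 10.46 in parental LoVo, and its LoVo-R8 levels were below the array median, so no fold is given. BHLHE40, its paralog, had 9.59 on every array, an exact tie of the deposited values.

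PLOD2, a lysyl hydroxylase of collagen, had 6.90 in LoVo 8R+, 5.41 in LoVo 8R- and 8.27 in parental LoVo. Both LoVo-R8 levels of PLOD2 were below the array median and the difference between them is uncertain. TFRC, the transferrin receptor, had 9.86 in LoVo 8R+, 9.03 in LoVo 8R- and 10.91 in parental LoVo. RORA, a nuclear receptor gene and the other lower one, differed from parental LoVo by -1.16 in LoVo 8R+ and by -1.11 in LoVo 8R-. The genes past 2-fold thus went in both directions, and the median of the list was 0 on both LoVo-R8 arrays. BHLHE41, PLOD2, TFRC and RORA were the lower ones on both arrays, and CA12 was the higher one on both.

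**Figure D4:**
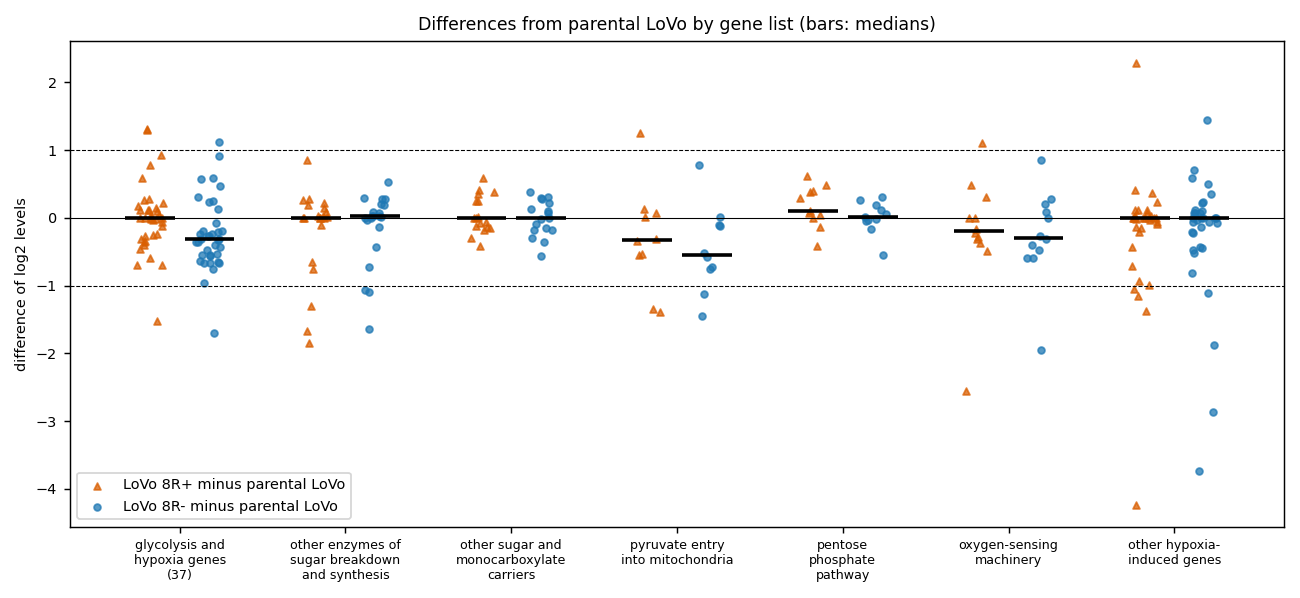
Difference of log2 levels from parental LoVo (vertical axis) in LoVo 8R+ (orange triangles) and LoVo 8R- (blue circles) for the 37 genes and the 6 further lists, 1 point per gene, where a bar gives the median and dashed lines mark 2-fold. The list of pyruvate entry has its medians at -0.33 and -0.55, and BHLHE41 is the lowest point at -4.23 and -3.73.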

How the data were processed

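RNA was hybridised by the authors to Affymetrix Human Gene ST arrays from 300 ng per sample, with 1 array for each condition. Deposited were log2 levels that the authors made with the robust multichip average (RMA: background correction, quantile normalization and median polish), in Affymetrix Expression Console 1.1 per the submitters' processing notes and in R and Bioconductor per the paper. RMA on 3 arrays leaves some genes with the same value on 2 or all 3 of them. All 33297 deposited probe sets were kept.

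Samples were grouped by their labels. A gene was represented by its brightest probe set naming 1 gene, which gave 18417 genes. All 37 measured genes matched the RefSeq symbols by Entrez identifier. Differences of log2 levels were counted at 2-fold in 3 comparisons, and tests, errors and p-values were left out, because every condition was measured once. The calculation was run on simulated data in which every planted difference was larger than 2-fold. That checks the arithmetic only and does not show how reliable a difference between single arrays is. The members and lists were chosen with earlier results of these data known. Named genes were all members, and up to 4 genes per further list past 2-fold against parental LoVo. Genes such as GAPDH, MPC2, ARNT, BHLHE40, RORA, PCK2 and DDIT4 were named after their values were seen.

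Alternatives were thresholds of 1.5-fold and 3-fold, median centring, loess correction (span 0.3, 3 iterations), repeated quantile normalization, the mean over probe sets, probe sets naming several genes, and a filter at the array median. Python 3.11.15, numpy 2.4.6, pandas 2.3.3, statsmodels 0.14.6 and matplotlib 3.10.9 were used. Promoter sequences are from RefSeq, build GRCh38.p14, which listed them for 33 of the 37 genes. The detection filter and clustering of the paper were not repeated.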

Additional observations from a re-analysis of the deposited data

Results flagged for a closer look

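The 37 genes and the 104 genes of the further lists were searched for resistant cultures on opposite sides of parental LoVo and at least 2-fold apart. This was so for 3 genes, each lower in LoVo 8R+ than in LoVo 8R-. The share of all genes with this pattern was not counted. On whichever side of parental LoVo, 0.114% of all genes were at least 2-fold lower in LoVo 8R+ than in LoVo 8R-. HKDC1 differed by -1.24 between LoVo 8R+ and LoVo 8R-, and its difference from parental LoVo was -0.34 in LoVo 8R+ but 0.91 in LoVo 8R-. DDIT4, a stress- and hypoxia-induced inhibitor of mTOR signalling, differed by -1.58, with -0.99 in LoVo 8R+ but 0.59 in LoVo 8R-. PCK2, the mitochondrial enzyme that makes phosphoenolpyruvate, differed by -1.03, with -0.75 in LoVo 8R+ but 0.28 in LoVo 8R-. With 1 array per culture these differences were not tested.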

How the results depend on the processing

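Members past the threshold depended on the threshold itself. At 1.5-fold, LoVo 8R+ had 5 higher and 4 lower (2 and 1 at 2-fold), while LoVo 8R- had 2 higher and 8 lower (1 and 1 at 2-fold). Compared with LoVo 8R-, LoVo 8R+ had 4 higher and 1 lower (0 and 1 at 2-fold). At 3-fold, LoVo 8R+ had 0 higher and 0 lower, LoVo 8R- had 0 higher and 1 lower (ALDOC), and 0 were lower in LoVo 8R+ than in LoVo 8R-. With repeated quantile normalization, HKDC1 reached 1.00 in LoVo 8R- and the genes higher there were 2. The cause of the last was not tested. No called difference changed its direction under any of the 8 alternatives, but for several of them none could. The thresholds and the filter at the array median reuse the same values, and the mean over probe sets could alter TPI1 alone. Every called difference was at least 2-fold, so only a large shift could have reversed it under the others. The median of the members could not move with the threshold. It moved by less than 0.1 under the other alternatives, and lay between -0.34 and -0.29 in LoVo 8R-. No paired analysis was possible because each condition has 1 array. Leaving out a replicate was not possible for the same reason. Signal over background was not available from the deposited values, and SLC2A3, PFKFB4 and ENO3 were below the median of every array. ALDOC, BHLHE41, PLOD2, PCK1, FBP1, ARNT2 and RORA were below it in both LoVo 8R+ and LoVo 8R-, so the size of their differences is uncertain.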
